A study of Homo sapiens with 16 samples.

Results

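The replacement histone variants are the histones whose genes are read outside S phase and whose proteins enter chromatin independently of DNA replication. Here they were represented by 9 genes, chosen by name: H2AZ1, H2AZ2, H2AX, H2AJ, H3-3A, H3-3B, H1-10, MACROH2A1 and MACROH2A2. All 9 were found among the 60605 Ensembl gene identifiers of the deposited tables, and all 9 passed the filter on low counts in every comparison. The assay was PRO-seq, in which isolated nuclei are allowed to run on and engaged RNA polymerases add a labelled nucleotide to the RNA they are making, so that a count reflects polymerase on the gene and not the amount of mRNA.

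The cells were LNCaP, an established human prostate cancer line that grows in response to androgen. Batch 1 held a group labelled Mock and a group given 6 Gy of ionizing radiation (IR), with replicates 1 and 2 in each and libraries t1 and t2 under every replicate. Batch 2 held 4 groups with replicates 3 and 4: DMSO vehicle for 90 min, vehicle with 6 Gy, 10 µM enzalutamide (an antiandrogen) for 90 min, and enzalutamide with 6 Gy. In the irradiated groups of batch 2 the vehicle or drug was present for 30 min before IR and the cells were collected 60 min after it. The labels describe these times for the vehicle and drug arms only. They give no meaning for t1 and t2, whose counts were therefore summed and each replicate counted once (n = 2 per group, 12 samples from 16 libraries). Nor do they say whether replicates were separate cultures, and p-values therefore measure the spread between these samples, which may be technical.

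A nucleosome wraps DNA around a histone octamer, and linker histone H1 binds where the DNA enters and leaves it. Most histone protein is made in S phase from clustered, replication-dependent genes, while the replacement variants exchange into chromatin at any time through their own chaperones. H2A.Z marks promoters and enhancers, H3.3 fills transcribed and regulatory chromatin, macroH2A carries a large globular domain and is enriched in silent chromatin, and H2AX is the variant that is phosphorylated around DNA double-strand breaks after irradiation. H2AX is also known to be made as both a replication-type and a polyadenylated mRNA.

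The sequences before the transcription starts of 4 members are shown because they hold letters that are also found in many promoters of replication-dependent histone genes, together with MACROH2A2, which holds none of them. Not every member holds each of them: TATAAA was not found at H2AJ, H2AZ2, H3-3A, MACROH2A1 or MACROH2A2. H2AZ2, with 4 matches to CCAAT, is not shown. Each is the 250 bases before the RefSeq start on build GRCh38.p14, written 5′ to 3′ on the gene's strand. Capitals mark CCAAT, the TATA box written TATAAA, and the core of the cell cycle genes homology region, TTTGAA, where these letters or their reverse complements occur, and no marked matches overlap.
H2AJ: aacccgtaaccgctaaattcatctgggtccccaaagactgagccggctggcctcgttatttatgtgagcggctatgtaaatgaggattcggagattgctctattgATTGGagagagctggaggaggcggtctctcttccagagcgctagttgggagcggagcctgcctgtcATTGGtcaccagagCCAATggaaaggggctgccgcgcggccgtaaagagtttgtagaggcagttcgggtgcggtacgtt
H2AX: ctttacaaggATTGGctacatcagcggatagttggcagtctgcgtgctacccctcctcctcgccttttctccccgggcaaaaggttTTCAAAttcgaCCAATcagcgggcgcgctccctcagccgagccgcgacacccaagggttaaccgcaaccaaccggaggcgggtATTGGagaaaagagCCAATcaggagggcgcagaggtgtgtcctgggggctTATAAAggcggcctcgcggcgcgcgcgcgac
H2AZ1: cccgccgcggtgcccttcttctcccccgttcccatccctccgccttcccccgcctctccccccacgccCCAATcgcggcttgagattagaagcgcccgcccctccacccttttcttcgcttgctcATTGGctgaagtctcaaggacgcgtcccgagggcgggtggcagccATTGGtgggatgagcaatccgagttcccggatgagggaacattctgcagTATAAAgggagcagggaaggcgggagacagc
H3-3B: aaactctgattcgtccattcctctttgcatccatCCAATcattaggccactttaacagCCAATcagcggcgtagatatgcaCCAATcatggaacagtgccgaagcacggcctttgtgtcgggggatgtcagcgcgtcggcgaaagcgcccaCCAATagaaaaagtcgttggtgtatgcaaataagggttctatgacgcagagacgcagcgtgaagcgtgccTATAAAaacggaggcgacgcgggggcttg
MACROH2A2: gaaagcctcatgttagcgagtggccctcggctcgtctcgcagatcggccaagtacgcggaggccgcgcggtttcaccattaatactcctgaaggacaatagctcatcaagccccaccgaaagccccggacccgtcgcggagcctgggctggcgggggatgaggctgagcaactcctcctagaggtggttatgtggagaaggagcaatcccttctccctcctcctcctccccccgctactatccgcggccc

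These stretches lie at chr12:14774155-14774404 on the plus strand (H2AJ), chr11:119095466-119095715 on the minus strand (H2AX), chr4:99950276-99950525 on the minus strand (H2AZ1), chr17:75779780-75780029 on the minus strand (H3-3B) and chr10:70052596-70052845 on the plus strand (MACROH2A2). The window searched ran to 50 bases past the start, 300 bases in all. CCAAT, the letters bound by the factor NF-Y, was found 4 times at H2AX, H2AZ2 and H3-3B and 3 times at H2AZ1 and H2AJ. At least 3 matches were thus present in 5 of 9 members, against 3.25% of the 34796 distinct RefSeq promoters of that length and 35 of 65 promoters of replication-dependent histone genes. H2AJ and H2AX each held a pair of matches at nearly the same place, 79 and 65 bases before the start in H2AJ and 81 and 67 bases before it in H2AX. TATAAA began 31 bases before the start of H2AX, H2AZ1 and H1-10 and 29 bases before that of H3-3B, which makes 4 of 9 members against 11.58% of all promoters and 45 of the 65. TTTGAA was found in H2AX and H2AZ1 (15.19% of all promoters), the GC box GGGCGG in 5 of 9 members (44.89%) and the steroid hormone response half-site AGAACA in 2 (14.83%). A member was scored over all its starts, 4 for H3-3A and 2 for MACROH2A1, while the percentages are per promoter. H3-3A and MACROH2A1 are among the 5 with GGGCGG. H1-10 had no CCAAT and MACROH2A2 had a match to none of the 5 motifs. The motifs were chosen after the counts had been seen, and a match is only a string of letters.

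The 9 genes differ widely in length on RefSeq, which mattered for their counts. H2AX spans 1592 bp at chr11:119093874-119095465 and lies wholly inside the annotated span of DPAGT1, so reads of the overlap may be shared between them. H2AJ spans 3598 bp at chr12:14774405-14778002, with the histone H4 gene H4C16 as its nearest neighbour 3273 bp below it. H1-10 (1.52 kb, chromosome 3), H2AZ1 (2.19 kb, chromosome 4) and H3-3B (3.35 kb, chromosome 17) are also shorter than 4 kb. H3-3A (10.19 kb, chromosome 1), H2AZ2 (21.24 kb, chromosome 7), MACROH2A2 (59.44 kb, chromosome 10) and MACROH2A1 (65.51 kb, chromosome 5) are longer. Overlapping RNA genes covered 10300 bp of MACROH2A1 (PITX1-AS1) and 665 bp of H3-3A (H3-3A-DT), and how the counting treated strand is not given in the sources used here. Processed copies could also take reads from H3-3A, H3-3B and the H2A.Z genes. The 8 H2A.Z pseudogenes held 720 counts over all libraries against 20020 in H2AZ1 and H2AZ2, and 46 H3 pseudogenes held 469 against 30819 in H3-3A and H3-3B. H3P4, a locus with a synonym that places it in the clustered H3 genes, held another 5999.

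Library totals were between 3438642 and 9363458 counts in batch 1 and between 10494563 and 19905824 in batch 2. The treatments were visible in known targets. CDKN1A, the p53 target that encodes the cell cycle inhibitor p21, rose by 3.32 on the log2 scale with IR over both batches, and MDM2, the ubiquitin ligase of p53, rose by 2.59. TMPRSS2, an androgen-induced gene, fell by 0.58 with enzalutamide (edgeR adjusted p = 0.00123), while KLK3, the androgen target that encodes PSA, had -0.66 and did not pass (adjusted p = 0.69). Of the alternative settings given below, KLK3 passed in edgeR without the filter on low counts (-0.67, adjusted p = 9.02e-05). It also passed with the replicate block, a term for replicate number (-0.70, adjusted p = 0.00204), and was not called in the others. With IR over both batches TMPRSS2 fell by 0.30 (adjusted p = 0.0226) and KLK3 fell by 0.41 (adjusted p = 0.0115). TMPRSS2 also served as a marker of LNCaP, with group means of 282 to 473 CPM (counts scaled to the library size with TMM factors), while CHGA was at 0. Of the markers of other cell types, group means of PTPRC, KRT5, COL1A2, DCN and KRT14 were at most 0.68, 0.69, 0.81, 1.21 and 1.46 CPM, those of PECAM1 were 2.82 to 4.26, those of COL1A1 7.70 to 9.74 and those of SYP 5.40 to 14.6 CPM, and their part in the results was not tested. KLK3 was 178 ± 1.91 CPM in mock cells and 15.2 ± 2.59 CPM in vehicle cells (SD, n = 2), so the unirradiated groups without drug differ between the batches. The share of mitochondrial genes was 2.86 to 5.38% in the libraries of batch 1 and 0.57 to 0.934% in those of batch 2.

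Polymerase density, given as CPM per kb of RefSeq length, was highest for H2AX and H1-10 and lowest for MACROH2A2 in every group. In vehicle cells the order was H2AX at 57.6 ± 1.56, H1-10 at 51.6 ± 6.57, H3-3B at 33.3 ± 4.93, H2AZ1 at 24.9 ± 4.78, H2AJ at 9.47 ± 0.575, MACROH2A1 at 4.18 ± 0.203, H3-3A at 3.61 ± 0.196, H2AZ2 at 2.36 ± 0.0417 and MACROH2A2 at 0.773 ± 0.104 CPM per kb (SD, n = 2). Within each pair of paralogs 1 gene was much denser per kb, H2AZ1 over H2AZ2, H3-3B over H3-3A and MACROH2A1 over MACROH2A2. Before division by length, H2AZ1 and H2AZ2 were close in vehicle cells, at 54.6 and 50.1 CPM. In mock cells they were 139 and 42.1 CPM. With vehicle H3-3B and H3-3A had 111 and 36.8 CPM, and MACROH2A1 and MACROH2A2 had 274 and 45.9 CPM. The genes shorter than 4 kb head the order per kb, which thus depends on the length used. The replicates of neighbours in this order did not overlap in vehicle cells, but those of H2AX and H1-10 did in irradiated vehicle cells and in enzalutamide cells. In mock cells of batch 1 the density of H1-10 was 172 ± 28.1, of H2AX 106 ± 13.7, of H3-3B 78.5 ± 1.42 and of H2AZ1 63.5 ± 16.8 CPM per kb. The tables of the batches were scaled separately, and a level is not compared between them with a test.

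**Figure D1:**
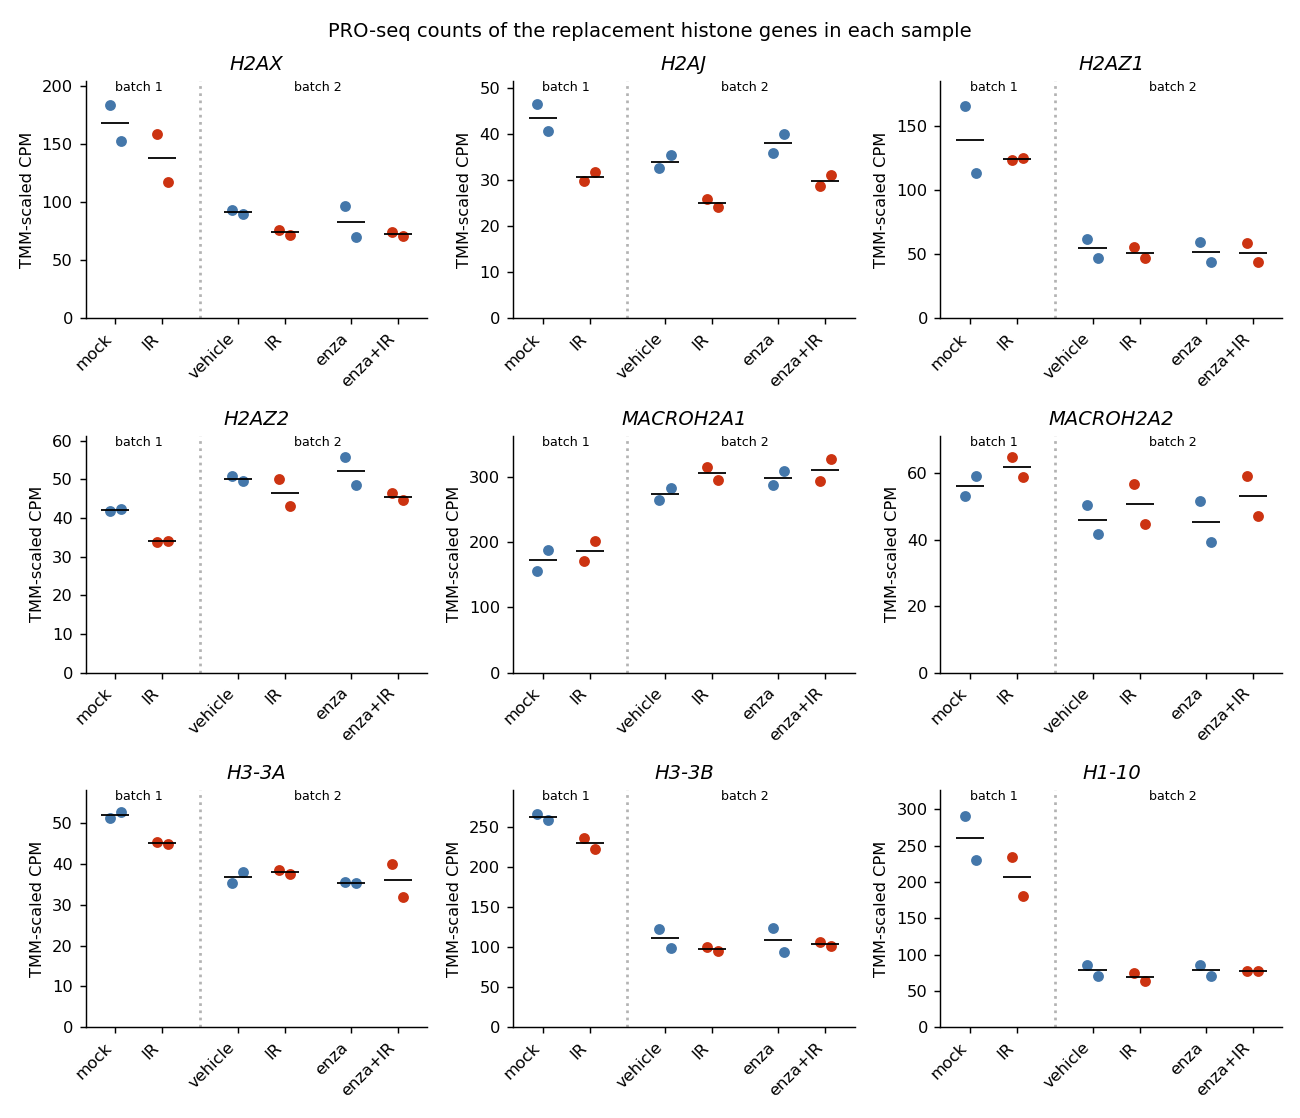
TMM-scaled CPM of each replacement histone gene (vertical axes, from 0) in the 12 samples by group. Points are samples, black lines are group means, blue is unirradiated and red is irradiated. H2AJ is lower in both irradiated samples than in both controls in all 3 settings, while the samples of every other member overlap in at least 1 setting. The share of all genes whose samples separate in this way was not counted.

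Irradiation was first compared over both batches without enzalutamide (8 samples, batch as a term). After 6 Gy transcription of H2AJ fell by 29.0% and that of H2AX fell by 19.7%. These 2 of 9 members passed an adjusted p of 0.05 in edgeR's quasi-likelihood test, where 4.05% of the 29195 genes tested passed in either direction and 1.66% passed as lower. The fold changes of 7 members were negative and their median was -0.21 on the log2 scale, beside a median of -0.02 over all genes tested. Both macroH2A genes had positive values.

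H2AJ encodes an H2A variant known to accumulate in senescent cells with DNA damage. It stood at 46.6 and 40.7 CPM in mock cells and at 29.8 and 31.7 CPM in irradiated cells of batch 1. In batch 2 it was 32.6 and 35.5 CPM with vehicle and 25.9 and 24.3 CPM with vehicle and IR, and 36.0 and 40.1 CPM with enzalutamide and 28.7 and 31.1 CPM with enzalutamide and IR. In each of the 3 settings both irradiated samples lay below both of their controls. The share of all genes whose samples separate was not counted in any setting, here or for the members below. Over both batches H2AJ fell by 0.49 on the log2 scale (SE 0.0787, edgeR adjusted p = 0.000373), and it also passed in batch 1 alone (fell by 0.52, SE 0.114, adjusted p = 0.0284), the only member that did where 2.82% of genes passed. The batch 1 call was lost when mock replicate 1 or either irradiated replicate was left out (adjusted p of 0.0629 to 0.131) and in DESeq2 (0.121).

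H2AX had 183.5 and 152.5 CPM in mock cells and 159.1 and 117.3 CPM in irradiated cells of batch 1, which overlap. With vehicle in batch 2 it had 93.5 and 90.0 CPM before and 76.1 and 72.1 CPM after IR, which do not overlap. With enzalutamide it had 96.3 and 69.7 CPM without and 74.6 and 70.8 CPM with IR, and the unirradiated replicates enclose the irradiated ones. The change over both batches was -0.32 on the log2 scale (SE 0.0884, edgeR adjusted p = 0.048), at the edge of the threshold. It was above the threshold in DESeq2 (adjusted p = 0.0912), with other scalings of the libraries (0.0776 and 0.0681), and without mock replicate 1, irradiated replicate 2 of batch 1 or any of the 4 vehicle and irradiated vehicle replicates of batch 2 (0.0714 to 0.329). DPAGT1, the gene that covers H2AX, had a change of -0.24 (SE 0.0978, adjusted p = 0.215), and whether its reads entered the H2AX count is not given in the sources used here.

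The H2A.Z genes did not pass the test. H2AZ2 changed by -0.22 (SE 0.0769, adjusted p = 0.132) over both batches. Its mock samples of 41.8 and 42.4 CPM lay above the irradiated 33.7 and 34.2 CPM in batch 1. Its enzalutamide samples of 55.7 and 48.5 CPM lay above the 46.4 and 44.7 CPM of enzalutamide with IR, while the vehicle samples of 50.7 and 49.5 CPM overlapped the 49.96 and 43.1 CPM of irradiated ones. H2AZ1, the paralog with more counts per kb, changed by -0.15 (SE 0.103, adjusted p = 0.498), and its samples overlapped in all 3 settings. Its mock replicates of 165.0 and 113.1 CPM were farther apart than the mean change.

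H3-3A and H3-3B encode the same H3.3 protein from different genes. H3-3B changed by -0.21 (SE 0.0763, adjusted p = 0.157). It was 265.9 and 259.2 CPM in mock and 236.9 and 222.3 CPM in irradiated cells of batch 1, without overlap, and 123.0 and 99.6 CPM with vehicle against 100.7 and 95.4 CPM after IR, with overlap. H3-3A changed by -0.10 (SE 0.0776, adjusted p = 0.572). Its batch 1 samples did not overlap (51.2 and 52.8 CPM in mock, 45.4 and 44.9 CPM after IR), while in batch 2 they ran from 35.4 to 38.2 CPM with vehicle and from 37.6 to 38.5 CPM after IR. In batch 2 alone, with IR averaged over vehicle and enzalutamide, the sign for H3-3A turned to 0.03.

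H1-10 encodes H1.10, a linker histone made outside S phase. It had 291.1 and 230.8 CPM in mock and 234.0 and 180.3 CPM in irradiated cells, and 85.2 and 71.1 CPM with vehicle against 74.7 and 64.2 CPM after IR, with overlap in both. The change over both batches was -0.28 (SE 0.0977, adjusted p = 0.145).

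The macroH2A genes were the members with positive values. MACROH2A1 changed by 0.11 (SE 0.0813, adjusted p = 0.528) and MACROH2A2 by 0.12 (SE 0.0857, adjusted p = 0.537), with 95% intervals from -0.06 to 0.28 and from -0.06 to 0.30. MACROH2A1 had 264.4 and 283.2 CPM with vehicle and 314.5 and 295.3 CPM after IR, without overlap, but overlapped in batch 1 (156.4 and 187.3 CPM against 170.7 and 201.8 CPM). Samples of MACROH2A2 overlapped in all 3 settings.

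**Figure D2:**
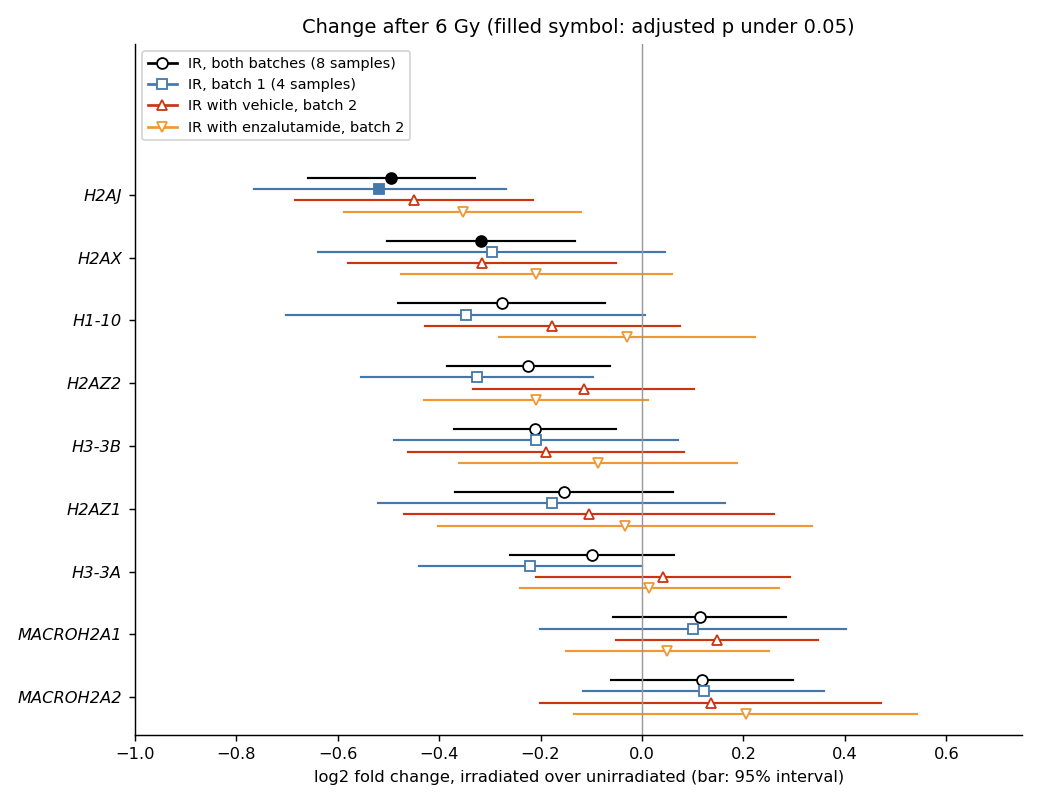
Log2 fold change of each replacement histone gene after 6 Gy (horizontal axis) with its 95% interval, in both batches, in batch 1, and in batch 2 with vehicle or with enzalutamide. Filled symbols passed an adjusted p of 0.05, which only H2AJ (both batches, batch 1) and H2AX (both batches) did, and both macroH2A genes lie to the right of 0 at every symbol.

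No member passed a test of the difference in the IR change between batches. The change in batch 1 minus that in batch 2 ran from -0.29 for H3-3A (95% interval -0.58 to 0.01) to -0.01 for H2AX (-0.39 to 0.38), and 0 of 9 passed in edgeR where 0.106% of genes did, with 0 at an unadjusted p under 0.05. All 9 values were negative, but with total counts H2AX (0.062), H3-3B (0.024) and MACROH2A2 (0.031) were positive, and 663 of the 953 tested non-histone genes under 4 kb were negative too. In batch 2 with vehicle 0 of 9 members passed, where 1.1% of the 28651 genes tested did, and 2 were at an unadjusted p under 0.05. H2AJ had -0.45 there (SE 0.108, edgeR adjusted p = 0.0828) and H2AX -0.32 (SE 0.122, adjusted p = 0.363). With enzalutamide 0 of 9 passed (0.918% of genes) and 1 was at an unadjusted p under 0.05, with -0.35 for H2AJ (SE 0.108, adjusted p = 0.269), -0.21 for H2AX (SE 0.123, adjusted p = 0.63) and 0.20 for MACROH2A2 (SE 0.156, adjusted p = 0.732). DESeq2 also called 0 of 9 in each of these comparisons. It called 0.113% of all genes tested for the difference between batches, 1.9% with vehicle and 1.49% with enzalutamide.

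Batch 1 contains a further difference between libraries that falls on the short members. In both irradiated replicates the libraries t1 held more of the 5 genes shorter than 4 kb than t2 did, by 1.49 to 2.54 times, and in both mock replicates they held less, at 0.479 to 0.943 times t2. For H3-3B the mock libraries were 182.0 and 325.5 CPM in replicate 1 and 180.8 and 377.3 CPM in replicate 2, and the irradiated ones 278.3 and 171.0 CPM in replicate 1 and 282.3 and 174.3 CPM in replicate 2 (t1 first). The 4 longer members differed by 0.851 to 1.32 times. Protein-coding genes under 4 kb other than histones took a share of 4.55 to 4.80% of protein-coding counts in mock t2 and irradiated t1 libraries and 2.62 to 3.61% in mock t1 and irradiated t2 libraries. After summing, these shares were 4.15 and 3.45% in mock and 3.95 and 3.57% in irradiated samples, which overlap, and they were 1.94 to 2.23% in batch 2. The share of mitochondrial counts was crossed in the opposite sense, at 3.24 and 3.94% in mock t2 and 2.87 and 2.86% in irradiated t1 libraries against 4.25 and 5.06% in mock t1 and 5.38 and 4.47% in irradiated t2 libraries. A comparison of t1 or of t2 libraries alone thus sets libraries of unlike short-gene and mitochondrial share against each other, and the part of either in the results was not tested.

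**Figure D3:**
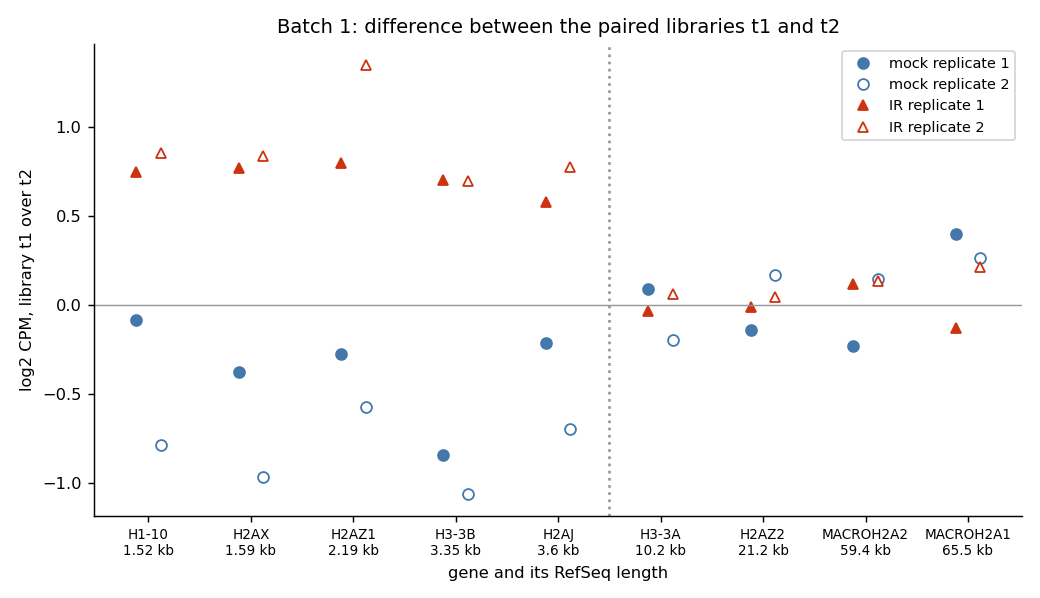
Log2 ratio of CPM between libraries t1 and t2 of the same replicate in batch 1 (vertical axis) for the 9 genes, ordered by RefSeq length. Blue circles are mock and red triangles irradiated replicates. Left of the dotted line, genes shorter than 4 kb, every irradiated ratio is above 0 and every mock ratio below it, and to the right the ratios of the 4 longer genes run from -0.23 to 0.40.

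The values that rest on batch 1 therefore depend on which libraries are used. With the t1 libraries alone the IR change in batch 1 was 0.57 for H3-3B (edgeR adjusted p = 0.0341), 0.43 for H2AZ1, 0.32 for H2AX, 0.12 for H1-10 and -0.03 for H2AJ. H3-3B was the only member that passed there, where 17.3% of all genes tested did. With t2 alone the IR change in batch 1 was -0.97 for H3-3B, -0.95 for H2AZ1, -1.03 for H2AX and -0.97 for H1-10, with adjusted p from 5.71e-05 to 8.66e-05. There 6 of 9 members passed, where 44.7% of all genes tested did. Among these, MACROH2A1 passed as higher, at 0.33 (edgeR adjusted p = 0.0495). Over both batches with t1 alone, 0 of 9 members passed, where 2.93% of all genes tested did. H2AJ was at -0.28 there (adjusted p = 0.244) and H2AX at -0.03 (adjusted p = 0.946). Over both batches with t2 alone, 2 of 9 passed, where 2.37% of all genes tested did. These were H2AJ at -0.74 (adjusted p = 0.00734) and H2AX at -0.67 (adjusted p = 0.0287). Without any library of batch 1, in the 8 samples of batch 2 with IR averaged over vehicle and enzalutamide, H2AJ was at -0.40 (adjusted p = 0.00455) and H2AX at -0.26 (adjusted p = 0.0847). Over both batches the median change of the 953 tested non-histone genes under 4 kb was -0.0023, and that of the 15174 longer ones was 0.0026. In batch 1 alone the medians were -0.047 for the short and 0.0098 for the longer genes. With vehicle in batch 2 they were 0.080 and 0.030. The value over both batches thus joins short-gene medians of opposite sign, and their part in the results was not tested.

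The replication-dependent histone genes, a list added after its values had been seen, give the setting for H2AJ and H2AX. All 59 of the 66 genes that were tested had negative changes over both batches, 45 passed as lower and the median was -0.53, so H2AJ at -0.49 lies near the middle of that list and H2AX near its upper end. With t1 libraries alone in batch 1 the count was 18, and with batch 2 alone it was 41. H4C16, the neighbour of H2AJ, was at -0.66 (adjusted p = 5.09e-06). Many of these genes are near-identical copies between which reads can be split. Of 12 other histone genes outside the clusters, 3 were tested, and CENPA, the centromeric H3 variant, fell by 0.36 (SE 0.0725, adjusted p = 0.00411), but it passed neither with t2 libraries alone in batch 1 (-0.27, adjusted p = 0.12) nor with batch 2 alone (0.0665) nor without irradiated replicate 2 of batch 1 (0.054).

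Of the 65 tested genes of the deposition, H2AX and chaperone lists, 3 passed with IR over both batches, or 4.62%, beside 4.05% of all genes. Of 22 genes for H2A.Z deposition and removal 2 passed as lower and 0 as higher, with a median of 0.0035. ANP32E, the chaperone that removes H2A.Z, fell by 0.44 (SE 0.0891, adjusted p = 0.00387), from 29.6 ± 1.88 to 21.5 ± 0.527 CPM in batch 1 and from 28.1 ± 2.88 to 21.4 ± 3.04 CPM with vehicle (SD, n = 2), and with t1 libraries alone its adjusted p was 0.403. BRD8, a subunit of the TIP60 and p400 complex, fell by 0.25 (SE 0.0683, adjusted p = 0.0446), which was lost in DESeq2 (0.189) and without any 1 of the 8 samples (0.0632 to 0.277). Of 10 genes for H3.3 deposition and 12 general histone chaperones, 0 passed in edgeR or DESeq2, with medians of 0.04 and 0.13 and 0 and 3 genes at an unadjusted p under 0.05. Of 21 genes that phosphorylate, read or erase the H2AX mark, 1 passed: PPM1D, the p53-induced phosphatase WIP1 that removes it, rose by 1.70 (SE 0.097, adjusted p = 3.37e-10). Its level went from 53.4 ± 2.33 to 219 ± 12.7 CPM in batch 1, from 74.8 ± 0.561 to 202 ± 11.7 CPM with vehicle and from 77.0 ± 4.40 to 187 ± 5.49 CPM with enzalutamide (SD, n = 2), without a like rise of H2AX.

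**Figure D4:**
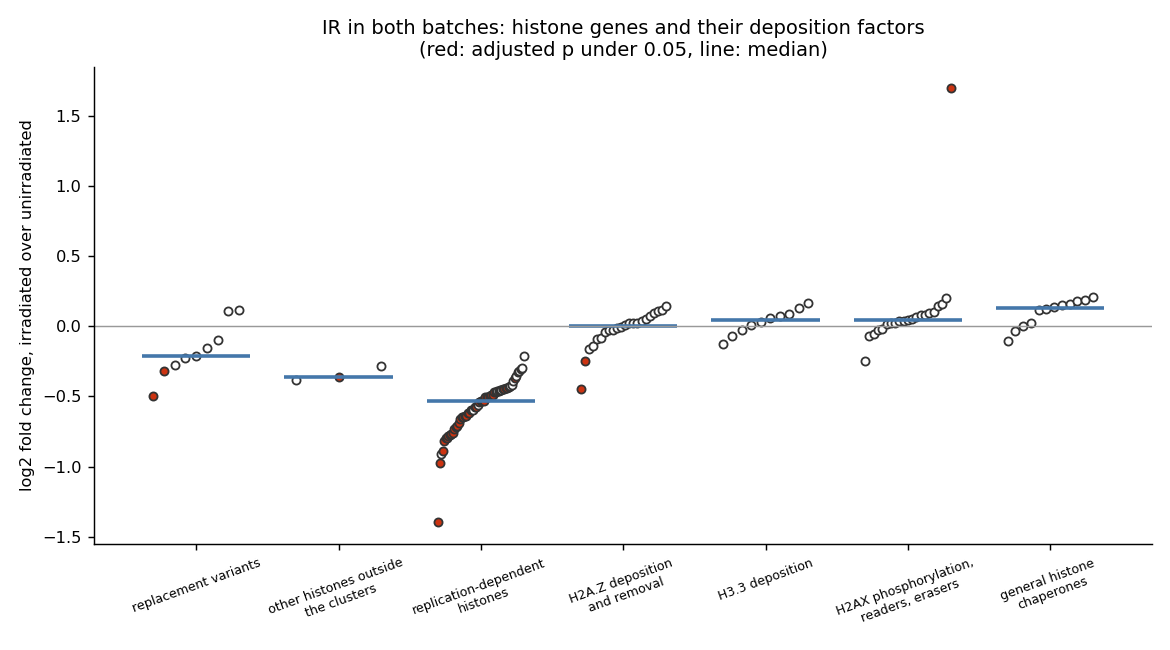
Log2 fold change after 6 Gy over both batches (vertical axis) for each tested gene of 7 lists, sorted within a list. Red points passed an adjusted p of 0.05 and blue lines are medians. The 9 replacement variants have a median of -0.21 and the 59 replication-dependent genes one of -0.53. The deposition, H2AX and chaperone lists have medians from 0.0035 to 0.13, and in them only PPM1D, ANP32E and BRD8 passed.

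Enzalutamide, averaged over IR in the 8 samples of batch 2, gave 0 of 9 members past the threshold, where 0.0628% of genes passed. DESeq2 also called 0 of 9, where it called 59 genes in all, and the share of genes tested was not counted. H2AJ had the smallest p of the 9, with a change of 0.20 (SE 0.0713, unadjusted p = 0.0131 and edgeR adjusted p = 0.732). Both enzalutamide samples of H2AJ lay above both vehicle samples without IR, and likewise with IR. The same held for MACROH2A1 without IR and for H3-3B and H1-10 with IR. The share of all genes that separate in this way was not counted. The other 8 members ran from -0.08 for H2AX (95% interval -0.26 to 0.10) to 0.08 for H1-10 (-0.09 to 0.25). None of the genes of the deposition, H2AX and chaperone lists passed for enzalutamide either, at an adjusted p of 0.05 in edgeR or DESeq2 or at an unadjusted p of 0.05 in edgeR.

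Whether enzalutamide altered the IR change was tested as an interaction. It was passed by 0 of 9 members and by 0 of 28651 genes (0%) in edgeR, with 343 genes at an unadjusted p under 0.05 and 0 genes in DESeq2. The IR change with enzalutamide minus that with vehicle was 0.10 for H2AJ (95% interval -0.23 to 0.43) and 0.11 for H2AX (-0.27 to 0.48), and over the members it ran from -0.10 for MACROH2A1 (-0.38 to 0.18) to 0.15 for H1-10 (-0.21 to 0.50). The intervals named include 0.

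The genes most like the 2 called members were sought by the correlation of log2 CPM over the 12 samples, centred within batch, among 17426 genes with a mean of at least 50 counts in both batches. The points share libraries, depth and the treatment itself, so the values are descriptive. For H2AJ they were CDC20, an activator of the anaphase-promoting complex (r = 0.962), the histone gene H2AC25 (r = 0.960) and CEP70, a centrosomal protein (r = 0.960). For H2AX they were the histone gene H2AC12 (r = 0.948), PLGRKT (r = 0.943) and C11orf65 (r = 0.942). Between H2AJ and H2AX themselves r was 0.467, and between H2AX and the other members it ran from -0.859 for MACROH2A1 to 0.817 for H1-10, with 0.782 for H3-3B, 0.685 for H2AZ2 and 0.018 for MACROH2A2.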

How the data were processed

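The authors deposited 1 table of raw PRO-seq read counts per batch, whole numbers per Ensembl gene identifier. Per the submitters' processing notes, cutadapt 1.8.1, Bowtie2 2.4.4, SAMtools 1.9 and build hg38 were used. The counting tool, annotation, strand use and duplicate handling are not given in the sources used here. Symbols matched 60463 of 60605 identifiers. Lengths, positions and promoters come from RefSeq (GRCh38.p14), where all 9 members matched.

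Counts of libraries t1 and t2 of a replicate were summed. Genes were filtered with filterByExpr, scaled by TMM and tested by edgeR 4.0.16 (R 4.3.3) with quasi-likelihood, two-sided, and Benjamini-Hochberg adjustment over all genes of a comparison. DESeq2 1.42.0 was an alternative, with other scalings, no filter, a replicate block, t1 or t2 alone and each sample left out. IR in batch 2 alone was added after seeing the data. In batch 2 all 8 samples shared 1 fit. CPM are TMM-scaled within a batch. Steps were tested on simulated counts.

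The members and gene lists were chosen with earlier results of these data known. Named genes are all members, list genes past 0.05 over both batches or for enzalutamide (at most 8 per list), the 3 genes most like each called member, and checks, neighbours and copies. H4C16 was named after its values were seen. Some results are not reported here.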

Additional observations from a re-analysis of the deposited data

Results flagged for a closer look

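For MDM2, used as a check of the irradiation, the change with IR differed between the batches: it was larger in batch 1 by 0.99 on the log2 scale (SE 0.172, edgeR adjusted p = 0.0268). The call was kept in DESeq2 itself (0.92, adjusted p = 3.12e-05). In edgeR it was kept with total counts (adjusted p = 0.0083), no filter (7.03e-05), the replicate block (9.27e-05) and t2 libraries alone (6.53e-05). Other settings lost it. With DESeq2-type size factors the adjusted p was 0.0691 and with t1 libraries alone 0.0581, and leaving out 1 sample gave values from 0.89 to 1.07, with the call lost in 5 of the 8 cases, without irradiated replicate 2 of batch 1 or any of the 4 vehicle and irradiated vehicle replicates of batch 2 (adjusted p of 0.0728 to 0.197).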

How the results depend on the processing

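The fall of H2AJ over both batches kept its direction and its call under every alternative except t1 libraries alone (-0.28). The call of H2AX ended under most of them. Shares of all genes tested that were called are given in brackets. Members called over both batches were 1 of 9 with DESeq2 (4.83%) or batch 2 alone (4.71%), 0 with t1 libraries alone (2.93%) and 4 with the replicate block (6.69%). RLE size factors and total counts also gave 1 of 9, where 1237 and 1105 of the 29195 genes tested were called. No filter gave 1 of 9 as well, where 1429 genes were called, and the share of all genes tested was not counted there. In batch 1 they were 0 with DESeq2 (2.25%), 4 with the block (9.01%) and 6 with t2 alone (44.7%). Batch 1 changes also moved when 1 sample was left out, from -0.55 to -0.17 for H1-10 and from -0.54 to -0.091 for H2AX. For H2AZ1 the change was -0.43 without mock replicate 2 and 0.12 without mock replicate 1. With the block they were 2 with vehicle (4.59%) and 1 with enzalutamide (3.32%). For the difference between batches they were 5 with t2 alone (20.3%).

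Genes called over both batches were 1954 with the block and 657 with t2 alone. In batch 1 they were 1157 without filter, 2332 with the block, 3995 with t1 alone, 9800 with t2 alone and 587 to 1509 with 1 sample left out. With vehicle they were 624 without filter, 1315 with the block and 161 to 511, with enzalutamide 556, 951 and 139 to 434, for enzalutamide itself 230, 272 and 7 to 36, and 59 with DESeq2. The interaction gave 32, 1 and 0 to 4. The difference between batches gave 119 without filter, 96 with the block, 452 with t1 and 5646 with t2 alone.

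Over all 9 members, the sign turned when 1 sample was left out in 0 values for IR over both batches, 3 in batch 1, 3 with vehicle, 7 with enzalutamide and 15 for the difference between batches, and in 15 for the interaction and 13 for enzalutamide itself. Under the other alternatives it turned in 3, 5, 0, 1 and 9 values of the first 5 and in 0 of the last 2. Among them were the following. With t1 alone, over both batches, H2AZ1 was 0.14 and H3-3B 0.16, and in batch 1 H1-10 was 0.12, H2AX 0.32, H2AZ1 0.43, H3-3B 0.57 and MACROH2A1 -0.057. With batch 2 alone H3-3A was 0.028. For the difference between batches, t1 alone gave 0.39 for H2AJ and 0.61 for H2AX, and total counts 0.062 for H2AX. Leaving out 1 sample gave, for that difference, -0.18 to 0.0095 for H2AJ and -0.24 to 0.19 for H2AX. In batch 1 it gave -0.43 to 0.12 for H2AZ1 and -0.026 to 0.24 for MACROH2A1, with vehicle -0.28 to 0.10 for H2AZ1, -0.015 to 0.10 for H3-3A and -0.031 to 0.28 for MACROH2A2. With enzalutamide it gave -0.41 to 0.054 for H2AX, for enzalutamide itself -0.17 to 0.017, and for the interaction -0.10 to 0.37 for H2AX and -0.17 to 0.0034 for MACROH2A1. The short-gene and mitochondrial shares of the t1 and t2 libraries are given above, and the cause of these changes of sign was not tested.

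Same-numbered samples deviated together with r of 0.257 to 0.469 across genes in batch 2 and 0.36 in batch 1. There are only 2 numbers per batch and no label ties a number to a shared day or culture, so the pairing is a hint from the data. With the block, over both batches, 6.69% of genes passed, among them H2AJ (adjusted p = 0.000306), H2AX (0.000782), H1-10 (0.00414) and H3-3B (0.0258). In batch 1 (9.01%) H2AJ (4.75e-05), H1-10 (0.00256), H2AX (0.00866) and H2AZ2 (0.0115) passed, with vehicle (4.59%) H2AJ (0.004) and H2AX (0.0286), and with enzalutamide (3.32%) H2AJ (0.0313). A lone sample left in a group is assumed to vary like the others.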
